A study of Arabidopsis thaliana with 9 samples.

Results

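The 10 genes described here belong to the XTH family, the xyloglucan endotransglucosylase/hydrolases of Arabidopsis thaliana, and were taken by locus identifier from the 32678 genes of the deposited files. They are XTH4 (AT2G06850), XTH15 (AT4G14130), XTH17 (AT1G65310), XTH18 (AT4G30280), XTH19 (AT4G30290), XTH22 (AT5G57560), XTH24 (AT4G30270), XTH25 (AT5G57550), XTH30 (AT1G32170) and XTH33 (AT1G10550). All 10 were found, and each had at least 1 FPKM in all 9 libraries and so entered the test. The other 23 genes numbered in the family, XTH1 to XTH33, served for comparison.

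RNA came from whole seedlings of 3 genotypes in the Col-0 ecotype, 3 libraries each. Col is the wild type, and csu5-1 and csu5-3 are mutants of COP1 SUPPRESSOR 5, a gene named for suppressing mutants of COP1, a ubiquitin ligase that holds back photomorphogenesis. All seedlings were 5 days old and had grown in constant white light of 14.59 μmol per square metre and second. The labels give neither the locus of the mutated gene nor which allele is the missense mutation of the series title, so the genotypes were not checked through the mutated transcript itself. They do not say whether the 3 libraries of a genotype came from separate growths, so p-values measure the spread between these libraries.

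Xyloglucan is the main hemicellulose of the primary wall of Arabidopsis and lies between and on cellulose microfibrils. XTH enzymes cut a xyloglucan chain and join the cut end to another chain, and a few members mainly hydrolyse it. The family is tied to wall loosening and wall assembly in growing tissue, and its genes respond to brassinosteroid, auxin, shade and touch.

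Levels are FPKM (fragments per kilobase of exon for every M reads counted), a unit inferred from the deposited values that corrects for gene length. Estimated depth was 37.1 to 43 M counted reads per library, so that a listed gene rested on 84 to 56222 estimated reads in a library. Each library's values are given as deposited, as a rounded FPKM. Whether libraries of 2 genotypes overlapped was judged on these values, before scaling. Log2 fold changes, with SE, come from limma on scaled log2(FPKM + 0.5), and adjusted p-values are Benjamini-Hochberg values over all 19329 genes tested. A gene was called, and is said to have risen or fallen, at an adjusted p below 0.01 and a fold above 1.5, the thresholds of the series text. The seedling label was checked with tissue markers. LHCB1.3, an antenna gene of green tissue, was at 23854 to 39813 FPKM. All 5 root markers were present. Of the 3 seed markers, the storage gene SESA1 stood at 0 to 0.72 FPKM, CRU3 at 0.08 to 2.79 and OLEO1 at 0.56 to 2.46, so seed transcripts were low but not absent.

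Among the 10 genes, XTH17, XTH18 and XTH19 are the closest relatives, and their starts are shown because their RNA levels parted in csu5-1. The coding sequences of XTH17 and XTH18 are identical at 92.2% of 849 aligned bases, those of XTH18 and XTH19 at 89.2%, and those of XTH17 and XTH19 at 88.6%. XTH18 and XTH19 are neighbours on chromosome 4, on the same strand and 1500 bases apart with no protein-coding gene between them, and XTH24 is the next gene, 5161 bases beyond XTH18. XTH17 lies on chromosome 1. The 250 bases before each annotated start are printed from RefSeq's TAIR10.1 assembly on the gene's strand, and the capitals mark the 73 bases next to the start that are identical in XTH17 and XTH18. No other pair of the 10 genes shared more than 2 bases there.
XTH17, chr1:24256804-24257053, plus strand: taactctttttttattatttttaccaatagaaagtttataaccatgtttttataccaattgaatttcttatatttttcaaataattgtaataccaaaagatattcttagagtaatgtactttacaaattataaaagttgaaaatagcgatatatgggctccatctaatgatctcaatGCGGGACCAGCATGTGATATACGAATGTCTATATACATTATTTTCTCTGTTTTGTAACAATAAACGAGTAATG
XTH18, chr4:14827212-14827461, minus strand: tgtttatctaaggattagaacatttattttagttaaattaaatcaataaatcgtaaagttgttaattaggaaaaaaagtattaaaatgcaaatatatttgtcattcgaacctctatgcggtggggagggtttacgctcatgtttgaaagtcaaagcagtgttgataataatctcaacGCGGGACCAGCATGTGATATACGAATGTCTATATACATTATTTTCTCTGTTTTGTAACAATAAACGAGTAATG
XTH19, chr4:14830225-14830474, minus strand: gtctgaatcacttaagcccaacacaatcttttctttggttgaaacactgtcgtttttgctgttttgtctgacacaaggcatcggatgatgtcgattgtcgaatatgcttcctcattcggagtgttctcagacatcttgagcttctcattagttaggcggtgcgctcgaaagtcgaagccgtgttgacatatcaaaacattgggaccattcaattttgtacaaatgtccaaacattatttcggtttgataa

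XTH25 and XTH22 form another adjacent pair, on the minus strand of chromosome 5 and 565 bases apart. They are shown because XTH25 went opposite ways in the 2 mutants. Capitals in the next 2 sequences mark, where present, CACATG, a variant E-box that PIF transcription factors can bind, and CGTGTG, an element bound by the brassinosteroid factor BZR1, each on either strand. XTH22 held neither in this window.
XTH25, chr5:23306441-23306690, minus strand: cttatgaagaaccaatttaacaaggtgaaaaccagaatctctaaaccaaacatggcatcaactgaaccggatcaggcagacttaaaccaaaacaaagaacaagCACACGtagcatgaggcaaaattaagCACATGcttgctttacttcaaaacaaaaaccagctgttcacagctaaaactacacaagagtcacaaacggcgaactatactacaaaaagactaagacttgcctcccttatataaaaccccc
XTH22, chr5:23308681-23308930, minus strand: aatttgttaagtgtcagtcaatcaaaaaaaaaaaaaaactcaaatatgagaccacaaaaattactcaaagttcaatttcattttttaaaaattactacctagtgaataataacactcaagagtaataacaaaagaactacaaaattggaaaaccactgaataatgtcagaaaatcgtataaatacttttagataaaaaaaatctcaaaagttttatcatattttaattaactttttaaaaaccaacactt

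CACATG was found, on either strand, in the windows of XTH17, XTH18, XTH25 and XTH33, which is 4 of the 10 genes, and in 11.2% of the 26711 such windows of protein-coding nuclear genes. Of the other 23 XTH genes, 1 held CACATG. In XTH17 and XTH18 it lies at the same place, 63 bases before the start and inside the shared stretch. CGTGTG was found in XTH25 alone among the 10, in 3 of the other 23 XTH genes and in 5.37% of all windows. CACGTG (6.58% of all windows), CGTGCG (1.58%) and TGTCTC (10.9%), which are known as the G-box, another BZR1 element and an auxin response element, had no match in any of the 10. No matches overlapped. Of the 7 genes that rose in csu5-1, 2 held CACATG, and of the 3 that were not called, 2 did.

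In Col the 10 genes spanned from 3.6 to 475 FPKM. XTH4, an abundant enzyme gene of growing tissue, was at 475, 414 and 373 FPKM and supplied 50.3% to 55.1% of the summed FPKM of the 10. XTH24, first found as the meristem gene MERI5, followed with 133, 139 and 139 FPKM. XTH30 and XTH18 came next with overlapping libraries, then XTH17 and XTH15, also overlapping. XTH19, XTH22, XTH33 and XTH25 closed the order, each separate from the next in all libraries.

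In csu5-1 the order changed in the middle. XTH17 moved to rank 3, separate from XTH24 above and XTH15 below. XTH15, XTH18, XTH30, XTH22 and XTH19 each overlapped the next in that order, and XTH25 stood above XTH33 in every library. In csu5-3 the order was close to that of Col, with XTH17, XTH30 and XTH18 overlapping in a row and XTH25 again lowest. The summed FPKM of the 10 genes was 742 to 863 in Col, 1491 to 1618 in csu5-1 and 823 to 873 in csu5-3. As a share of all FPKM of a library this was 0.105% to 0.12%, 0.211% to 0.231% and 0.119% to 0.126%. In whole seedlings, fewer cells of a type and less RNA per cell cannot be told apart.

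**Figure D1:**
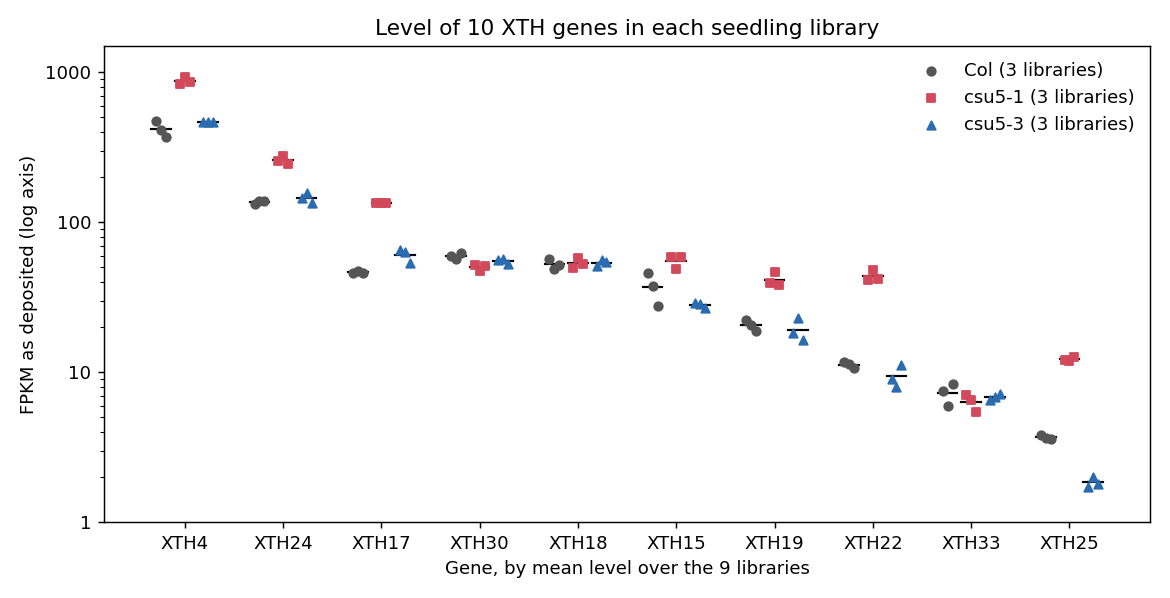
FPKM as deposited on a log axis for the 10 XTH genes, ordered by mean level, with 1 point per library (grey circles Col, red squares csu5-1, blue triangles csu5-3) and a bar at the mean of 3 libraries. The csu5-1 points lie above all Col points for XTH4, XTH24, XTH17, XTH15, XTH19, XTH22 and XTH25, and the csu5-3 points of XTH25 lie below all others.

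Seedlings of csu5-1 were compared with Col first, for the effect of this allele on transcript levels in the light. Of the 10 XTH genes, 7 rose and 0 fell. The 10 were chosen with earlier results of these data known, so shares over all genes do not test their counts in any comparison. Of all genes tested, 8.43% rose and 7.7% fell, 16.1% in either direction (1630 and 1489 genes, or 1313 and 1962 without scaling of the libraries). By limma at an unadjusted p below 0.05, 7 of the 10 were higher and 1 lower, and 56% of all genes tested had such a p. In FPKM as deposited, all csu5-1 libraries lay above Col for 7 of the 10 and below for 1, against 22% and 35.6% of all genes. These values were not scaled, unlike the folds, and scaling factors were 0.957 to 0.966 in csu5-1 and 1.017 to 1.026 in Col. The median log2 fold was 1.04 over the 10 and 0.00 over all genes tested. Scaling holds the value for all genes near 0, and without scaling it was −0.077. Log2 folds of the 7 ran from 0.68 to 2.00. XTH18, XTH30 and XTH33 were not called. Of the 3 shoot markers, LHCB1.3 fell in csu5-1 and CHLH rose. The third, RBCS1A, was lower but not called (−0.39 ± 0.08, limma adjusted p = 0.0017). The sum of the 3, most of it LHCB1.3, was 4.3% to 4.38% of all FPKM in csu5-1, 6.41% to 6.9% in Col and 6.12% to 6.9% in csu5-3. The part of these markers in the XTH values was not tested.

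XTH22, the touch gene TCH4, which is also induced by brassinosteroid and auxin, had the largest fold of the 10. It stood at 11.7, 11.3 and 10.7 FPKM in Col, 41.2, 47.9 and 42.2 in csu5-1, with 9.03, 8.03 and 11.2 in csu5-3. Every csu5-1 library was above every other library, whereas Col and csu5-3 overlapped. The log2 fold against Col was 2.00 ± 0.10 (adjusted p = 1.6e-08), a 3.99-fold rise. Its neighbour XTH25 stood at 3.83, 3.62 and 3.6 FPKM in Col, 12, 11.9 and 12.7 in csu5-1, and 1.73, 2 and 1.81 in csu5-3. The 3 genotypes were separate, with csu5-1 highest and csu5-3 lowest. XTH25 rose in csu5-1 with a log2 fold of 1.68 ± 0.10 (adjusted p = 5.6e-08).

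XTH17, which promotes petiole elongation in shade, was at 45.8, 47.2 and 45.9 FPKM in Col, 134, 135 and 134 in csu5-1, and 65.3, 63.7 and 53.7 in csu5-3. Here too no libraries of different genotypes overlapped, and csu5-3 lay between Col and csu5-1. The log2 fold of csu5-1 against Col was 1.61 ± 0.07 (adjusted p = 3e-09). XTH18, its near relative, which acts in root elongation, was at 57.2, 48.9 and 52.2 FPKM in Col, 49.4, 57.8 and 52.4 in csu5-1, and 50.8, 56.3 and 54.2 in csu5-3. Its libraries overlapped among all 3 genotypes. The log2 fold of csu5-1 against Col was 0.10 ± 0.07, with a 95% interval of −0.05 to 0.25 that lies inside the fold threshold of 0.585.

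XTH19, next to XTH18 on the chromosome, was at 22.3, 20.5 and 18.8 FPKM in Col, 39.2, 46.7 and 38.5 in csu5-1, and 18.3, 23.1 and 16.4 in csu5-3. The csu5-1 libraries were highest, and Col and csu5-3 overlapped. XTH19 rose in csu5-1 with a log2 fold of 1.08 ± 0.11 (adjusted p = 6.1e-06). XTH24, on the other side of XTH18, was at 133, 139 and 139 FPKM in Col, 258, 278 and 247 in csu5-1, and 145, 158 and 136 in csu5-3. This gene too was highest in every csu5-1 library and rose with 1.01 ± 0.06 (adjusted p = 5.8e-08). The middle gene of this row of 3 was thus not called while both its neighbours were.

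XTH4 was at 840, 937 and 856 FPKM in csu5-1 and 466, 470 and 464 in csu5-3, against the Col values given above. Its csu5-1 libraries were separate from all others, and it rose with a log2 fold of 1.15 ± 0.07 (adjusted p = 1.1e-07). By FPKM it accounted for most of the gain in the sum, and its share of that sum was 56.3% to 57.9% in csu5-1. XTH15, a shade-induced gene also called XTR7, was at 46.2, 37.5 and 27.5 FPKM in Col, 58.8, 48.7 and 58.5 in csu5-1, and 28.9, 28.6 and 26.7 in csu5-3. The csu5-1 libraries were all above Col, whose libraries ranged widely. It rose with 0.68 ± 0.14 (adjusted p = 0.0014). Without Col replicate 3 the fold of XTH15 was 0.49 and it was not called. XTH15 overlaps the antisense gene AT4G14120 and shares 100-base stretches with it, so that 74.5% of its windows were its own. AT4G14120 itself stood at 1.04 to 2.01 FPKM, with a log2 fold of 0.21 ± 0.20 in csu5-1, and no source used here states if reads were counted by strand.

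XTH30 and XTH33 belong to another branch of the family, and XTH33 has been described as held at the plasma membrane. XTH30 was at 60, 57.1 and 62.4 FPKM in Col, 52.1, 47.6 and 51.2 in csu5-1, and 55.8, 57.3 and 52.7 in csu5-3. All csu5-1 values were below all Col values, yet the log2 fold of −0.16 ± 0.06 (adjusted p = 0.032) missed both thresholds. XTH33 was at 7.51, 5.96 and 8.39 FPKM in Col, 7.07, 6.54 and 5.42 in csu5-1, and 6.52, 6.88 and 7.13 in csu5-3. The genotypes overlapped, and the interval of its log2 fold in csu5-1 was −0.38 to 0.17.

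**Figure D2:**
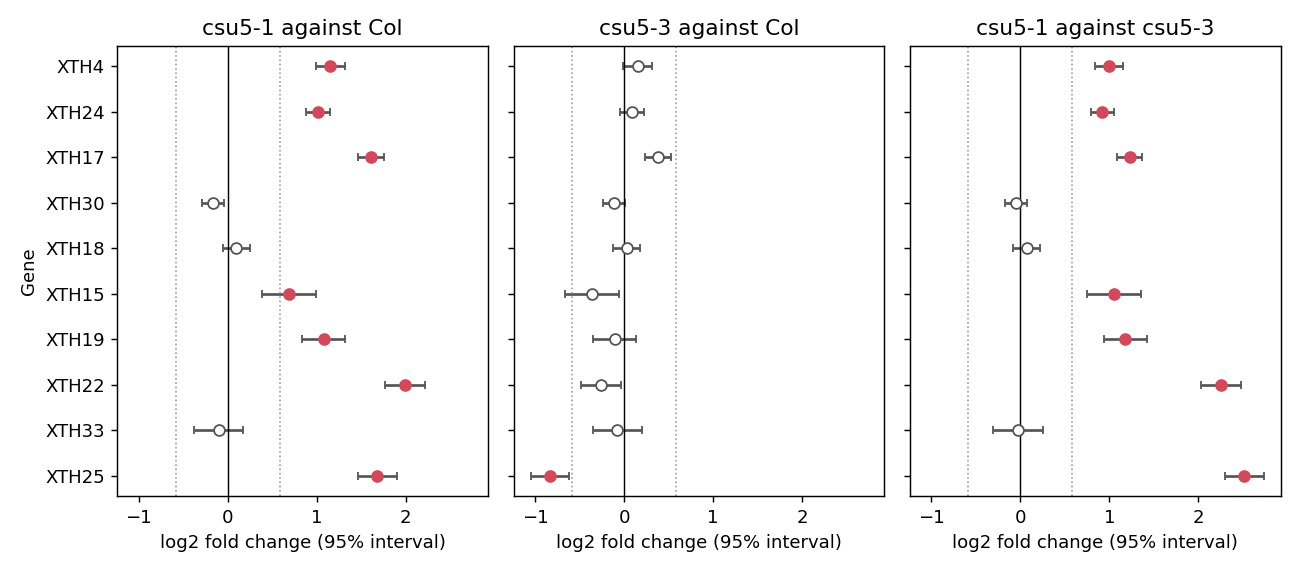
Log2 fold changes of the 10 genes with 95% intervals from limma in the 3 comparisons, filled where called. Dotted lines mark the fold threshold of 1.5 on the log2 scale. Of the 10, 7 are filled to the right for csu5-1 against Col and against csu5-3, and only XTH25 is filled for csu5-3 against Col, to the left.

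The second allele, csu5-3, was set against the same Col libraries, so that the comparisons share them. Of the 10 genes 1 fell, XTH25, and 0 rose, where 0.129% of all genes tested fell and 0.119% rose, 0.248% in either direction. At an unadjusted p below 0.05 limma gave 1 of the 10 higher and 3 lower, beside 22% of all genes. Before scaling, all csu5-3 libraries lay above Col for 1 of the 10 and below for 1, against 14% and 13.2% of all genes. XTH25 fell with a log2 fold of −0.83 ± 0.10 (adjusted p = 0.0018), to 1.73 to 2 FPKM, which is 84 estimated reads at the fewest. It was not called without Col replicate 1 (adjusted p = 0.012), when low genes were not filtered out (0.011) or in a fit of these 2 genotypes alone (0.015), and over all settings its adjusted p ran from 0.0014 to 0.015.

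XTH17 had a log2 fold of 0.39 ± 0.07 in csu5-3 against Col (adjusted p = 0.011), above Col in 3 of 3 libraries but short of both thresholds. The shade-linked XTH15 stood at −0.37 ± 0.14 (adjusted p = 0.15) and XTH22 at −0.26 ± 0.10 (adjusted p = 0.17). For the other 6 the 95% intervals lay between −0.35 and 0.32, inside the fold threshold on both sides.

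The direct comparison of the 2 mutants tested whether their levels differed. In csu5-1 against csu5-3, 7 of the 10 were higher and 0 lower. Of all genes tested 8.21% were higher and 6.47% lower, 14.7% together (1586 and 1251 genes, or 1300 and 1689 without scaling of the libraries). At an unadjusted p below 0.05 limma again gave 7 higher and 0 lower, beside 52.3% of all genes. Before scaling, all csu5-1 libraries lay above csu5-3 for 7 of the 10 and below for 1, against 20.7% and 35.5% of all genes. The 7 were XTH4, XTH15, XTH17, XTH19, XTH22, XTH24 and XTH25. XTH25 differed most, with a log2 difference of 2.52 ± 0.10 (adjusted p = 2e-09), and XTH22 next with 2.25 ± 0.10 (adjusted p = 6.7e-09). XTH17 differed by 1.23 ± 0.07 and XTH15 by 1.05 ± 0.14 (adjusted p = 2.7e-08 and 6e-05). The 95% intervals of XTH18, XTH30 and XTH33 all lay between −0.30 and 0.25.

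Ratios within a library show how neighbouring genes moved against each other. The level of XTH19 divided by that of XTH18 was 0.389, 0.42 and 0.361 in Col, 0.793, 0.808 and 0.734 in csu5-1, and 0.359, 0.41 and 0.304 in csu5-3. The ratio in csu5-1 was separate from both other genotypes, with a log2 difference of 0.98 from Col. XTH18 over XTH24 was 0.353 to 0.429 in Col and 0.192 to 0.212 in csu5-1, a log2 difference of −0.91. For XTH22 over XTH25, csu5-1 differed from Col by 0.31 and csu5-3 from Col by 0.58, both without overlap. The ratio of XTH17 to XTH18, a pair chosen after the values were seen, was 0.8 to 0.966 in Col, 2.34 to 2.71 in csu5-1 and 0.992 to 1.28 in csu5-3. With 3 against 3 libraries an exact two-sided permutation test cannot go below p = 0.1. That value was reached in 9 of the 12 ratio comparisons (Benjamini-Hochberg adjusted p = 0.133).

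**Figure D3:**
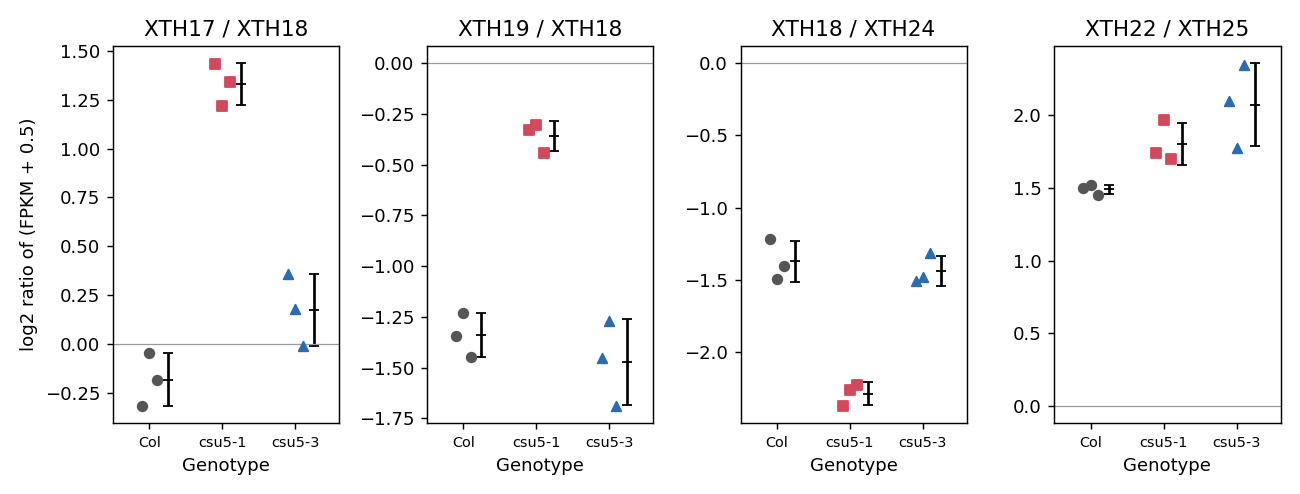
Log2 ratio of (FPKM + 0.5) between 2 genes within each library, by genotype, with the mean and SD of 3 libraries beside the points; the vertical axes differ between panels. XTH17 over XTH18 and XTH19 over XTH18 are highest in csu5-1, XTH18 over XTH24 is lowest there, and XTH22 over XTH25 is lowest in Col.

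Likeness of pattern was measured by Pearson's r of the scaled log2 values over the 9 libraries, which share genotypes, so that 3 levels dominate each r. Among the 10 genes the most alike were XTH17 and XTH24 (r = 0.983), then XTH4 and XTH24 (0.975). XTH22 and XTH25, the adjacent pair, had r = 0.963. Of all tested genes, those closest to XTH22 were BBX16, a B-box factor gene, HSD5, and GBSS1, a starch synthase gene, each with r = 0.997. The nearest to XTH17 were AT3G49220 and PRP2, a proline-rich wall protein gene (both 0.996), and AT1G10850 (0.995). XTH25 was closest to AT5G19940 (0.996), AT3G10405 and AT5G48490 (both 0.994). XTH4 matched AT1G52190 (0.999), AT1G55360 (0.997) and AT5G38200 (0.995), and XTH24 matched AT5G06970 (0.998), AT5G18630 and CAX7 (both 0.996). The nearest to XTH19 were AT4G32060 (0.995), AT5G15910 and AILP1 (both 0.993), and to XTH15 LBD38 (0.984), AT1G07820 and HSFB4 (both 0.982). The 3 genes that were not called in csu5-1 had lower best values, which is tied to the calls, since genotype levels dominate each r. XTH30 was closest to AT4G30260 (0.945), AT4G21970 and AT3G13740 (both 0.943), and XTH18 to UGT76E1 (0.937), WRKY21 (0.914) and TET2 (0.907). XTH33 was closest to AT1G63150 (0.909), EMB93 (0.867) and AT5G08660 (0.863).

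Of the other 23 XTH genes, 18 were tested, and XTH1, XTH2, XTH3, XTH26 and XTH29 were too low, at no more than 1.05 FPKM in any library. In csu5-1 against Col, 7 of the 18 rose and 4 fell, with a median log2 fold of 0.24, beside 8.43% and 7.7% of all genes tested. Without csu5-1 replicate 1, 4 rose and 4 fell. XTH6 fell most, from 96.4, 92.5 and 100 FPKM in Col to 15.1, 13.8 and 18.8 in csu5-1, with 76.6, 65.4 and 70 in csu5-3. Its log2 fold in csu5-1 was −2.49 ± 0.10 (adjusted p = 2.2e-09), opposite in sign to the 7 listed genes that rose. XTH7 rose from 80.9 to 123 FPKM in Col to 216 to 229 in csu5-1 (1.23 ± 0.11, adjusted p = 1.9e-06), XTH32 with 0.95 ± 0.09, and XTH23, named XTR6, with 0.89 ± 0.09. The remaining rises were those of XTH8, XTH9, XTH10 and XTH20. The other falls were XTH12, XTH13 and XTH21, of which XTH12 and XTH13 lie in the same row on chromosome 5 as XTH25, 686 bases from XTH13 to XTH25. XTH13 stood at 3.66, 2.51 and 2.76 FPKM in Col and 1.06, 0.44 and 0.94 in csu5-1 (−1.37 ± 0.22, adjusted p = 0.00025), and XTH12 at −1.35 ± 0.24 (adjusted p = 0.00052). Of these 4 XTH genes in a row, 2 fell in csu5-1 and 2 rose. Between XTH12 and XTH13 lies 1 other protein-coding gene, not analysed here.

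XTH12 and XTH13 are known from roots, so markers of roots were read beside them, and these did not all move the same way. Of 5 root genes tested, PRP3, EXPA7 and EXPA18 fell in csu5-1, COBL9 stood at −0.46 ± 0.15 and PYK10 at 0.30 ± 0.06. The summed FPKM of the 5, most of it PYK10, was 1857 to 2091 in Col, 2255 to 2297 in csu5-1 and 2206 to 2301 in csu5-3, and no root gene was at 0. Their part in the XTH values was not tested.

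In csu5-3 against Col, 0 of the 18 other XTH genes were called by limma, where 0.248% of all genes tested were. At an unadjusted p below 0.05, 2 were higher and 2 lower, beside 22% of all genes tested. XTH6 had the smallest p with −0.45 ± 0.10 (adjusted p = 0.025), followed by XTH31 with 0.29 ± 0.07 (adjusted p = 0.032). In csu5-1 against csu5-3, 5 of the 18 were higher and 3 lower, beside 8.21% and 6.47% of all genes tested. In order of p-value the first 4 were XTH6 (−2.04 ± 0.10), XTH9 (1.29 ± 0.13), XTH7 (1.01 ± 0.11) and XTH23 (0.75 ± 0.09). Over all 33 genes the summed FPKM was 1287 to 1490 in Col, 2154 to 2267 in csu5-1 and 1394 to 1452 in csu5-3.

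**Figure D4:**
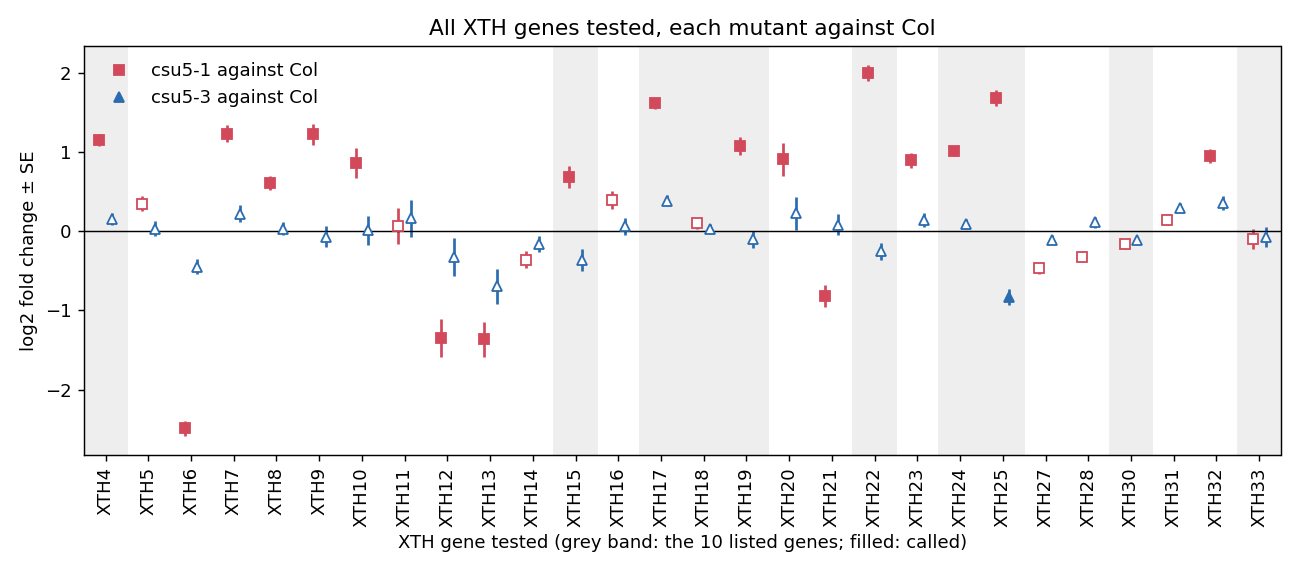
Log2 fold change with SE for each of the 28 XTH genes tested, csu5-1 against Col (red squares) and csu5-3 against Col (blue triangles), filled where called; grey bands mark the 10 listed genes. XTH22 has the highest and XTH6 the lowest fold in csu5-1, and XTH25 is the filled triangle.

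Genes that make or trim xyloglucan were followed next. Of 15 genes of xyloglucan synthesis, 1 rose in csu5-1 and 0 fell, with a median of 0.08, and at an unadjusted p below 0.05 limma gave 5 higher and 2 lower. Of all genes tested 8.43% rose, 7.7% fell and 56% had such a p, so the list lay near or below these shares. The riser was CSLC4, which builds the glucan backbone, at 33.7, 31.8 and 30.2 FPKM in Col, 60.7, 68 and 58.2 in csu5-1, and 34.2, 34.9 and 33.6 in csu5-3 (1.04 ± 0.06, adjusted p = 6.1e-08). Of 5 trimming genes 1 rose, AXY8, a fucosidase of xyloglucan, from 25 to 27.7 FPKM in Col to 64 to 64.8 in csu5-1 (1.34 ± 0.06, adjusted p = 5.6e-09). Both were also higher than in csu5-3 (0.94 ± 0.06 and 1.18 ± 0.06). In csu5-3 against Col, 0 genes of these lists were called by limma, beside 0.248% of all genes tested. There, 4 of the 15 and 3 of the 5 had an unadjusted p below 0.05, beside 22% of all genes tested.

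Cellulose synthesis, the other main wall polymer, gave 0 called genes of 11 tested in each comparison by limma. Of all genes tested, 16.1% were called in csu5-1 against Col, 0.248% in csu5-3 against Col and 14.7% between the mutants. At an unadjusted p below 0.05, 2 genes were higher and 2 lower in csu5-1 than in Col, where 56% of all genes had such a p. In csu5-3 against Col 6 were higher and 0 lower, beside 22% of all genes, and in csu5-1 against csu5-3 0 were higher and 5 lower, beside 52.3%. CESA8, a subunit for secondary walls, had the smallest p in csu5-1 against Col (0.46 ± 0.11, adjusted p = 0.0032), and CESA5, a subunit for primary walls, in csu5-3 against Col (0.25 ± 0.05, adjusted p = 0.024). Between the mutants COB, another gene of this list, had the smallest p and was lower in csu5-1 (−0.278 ± 0.045, limma adjusted p = 0.00027).

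Because XTH22 is a touch gene, other genes of touch and wounding were followed. This list too was chosen with earlier results of these data known. Of 9 tested, 4 rose in csu5-1 and 0 fell, with a median of 0.78, where 8.43% of all genes rose. By limma, 7 were higher and 0 lower at an unadjusted p below 0.05, beside 56% of all genes in either direction. CML12, known as TCH3 and coding for a calmodulin-like protein, was at 9.5, 5 and 3.98 FPKM in Col, 26.9, 27.9 and 28.8 in csu5-1, and 4.56, 5.33 and 3.51 in csu5-3 (2.26 ± 0.23, adjusted p = 4.9e-06). CML24, or TCH2, rose with 1.15 ± 0.10, WRKY40 with 0.95 ± 0.19 and CML38 with 0.79 ± 0.21. CML12, CML24 and WRKY40 overlap antisense genes, whose reads may be mixed with theirs. The summed FPKM of this list was 94.9 to 127 in Col, 163 to 168 in csu5-1 and 87 to 96.3 in csu5-3, and whether this had a part in the XTH22 values was not tested. In csu5-3 against Col 0 were called by limma, where 0.248% of all genes tested were. At an unadjusted p below 0.05, 2 were lower, beside 22% of all genes in either direction. The same 4 were higher in csu5-1 than in csu5-3, CML12 by 2.61 ± 0.23, where 8.21% of all genes tested were higher.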

How the data were processed

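RNA was sequenced in 9 libraries of whole seedlings, 3 genotypes by 3. The submitters' processing notes name Trimmomatic for trimming, HISAT2 2.05 for alignment, the TAIR10 genome and HTSeq for counting. The deposited values carry no header or stated unit and were read as FPKM: they are not whole numbers, and their sums differ between libraries. The values alone cannot separate RPKM from FPKM. Depth was the number of counted reads at which most low values of genes with 60 to 450 exon bases, 76.1% to 82.4%, were whole reads to a tolerance of 0.1. At other depths 13.2% to 15.9% were. Replicates differed by more than counting error: chi-square averaged 7.93 to 12.6 for a gene. None was a copy.

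The planned test for FPKM was used. Genes reaching 1 FPKM in 3 or more libraries entered limma 3.58.1 in R 4.3.3, with a mean-variance trend and 1 mean per genotype, on log2(FPKM + 0.5). Libraries were scaled by a mean of log ratios trimmed by 0.3 at each end (factors 0.957 to 1.028). The fit was also run on simulated counts, with changes in csu5-1 alone and no replicate effect. These settings are simpler than the data, so that run does not vouch for the calls. The 95% intervals are limma's. Replicate numbers are not said to pair libraries. Python 3.11.15 with pandas 2.3.3, Biopython 1.88 and matplotlib 3.10.9 did the rest.

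The members and lists were chosen with earlier results of these data known. Named genes were all 10 members, in each list up to 4 called genes of smallest p in a comparison, and for each member the 3 genes of highest r. The other XTH genes had no call in csu5-3 against Col, and there the 2 of smallest p were named. For cellulose synthesis, which had no call, it was the gene of smallest p in each comparison. Where the remaining lists had no call, counts alone were given. Further genes (XTH8, XTH10, XTH12, XTH13, XTH20, XTH21, XYL1, AT4G14120 and the markers) were named to complete a count, a row of neighbours or a check. Names, exon lengths, sequences and neighbours came from RefSeq's TAIR10.1, whose nuclear chromosomes are those of TAIR10, and 31912 of 32678 identifiers matched. A planned search for a protein motif was not used here. Read sharing was small: of 50-base windows, 98.4% to 99.8% in XTH17, XTH18 and XTH19 occurred in no other transcript.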

Additional observations from a re-analysis of the deposited data

Results flagged for a closer look

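XTH25 was the 1 listed gene whose csu5-1 libraries all lay above Col while its csu5-3 libraries all lay below it. The difference between the mutants was tested directly: the log2 fold of csu5-1 against csu5-3 was 2.52 ± 0.10 (limma, adjusted p = 2e-09).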

How the results depend on the processing

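With 18 other settings, the 10 genes kept direction and side of the threshold in 177 of 180 values for csu5-1 against Col, 173 of 180 for csu5-3 against Col and 178 of 180 for csu5-1 against csu5-3. One setting was a filter of 5 FPKM, which XTH25 passed only through the csu5-1 libraries, where it was high. Its values under that filter are in these counts but lend no support. The count of listed genes called in csu5-1 was 6 to 7 when 1 library was left out. In csu5-3 it was 0 instead of 1 with no filter on low values, 0 in a fit of the 2 genotypes alone, and 0 to 1 when 1 library was left out. Directions turned for genes that were not called in the comparison concerned: without scaling XTH18 stood at −0.017 in csu5-1 against csu5-3. Leaving out 1 library gave XTH33 −0.23 to 0.001 in csu5-1 against Col, −0.20 to 0.029 in csu5-3 against Col and −0.10 to 0.075 between the mutants, and gave XTH18 −0.024 to 0.082 and XTH19 −0.23 to 0.002 in csu5-3 against Col. At a filter of 5 FPKM, which tests fewer genes, the other XTH genes called in csu5-1 numbered 7 of 13 tested, and 2 of 5 touch and wound genes were called in csu5-1 against Col and against csu5-3. In csu5-1 against csu5-3, 2 trimming genes were called without scaling, and under quantile normalization, and 1 to 2 when 1 library was left out. The added gene, named after its values were seen, was XYL1, an alpha-xylosidase gene, which was lower. The causes were not tested. Same-numbered libraries of different genotypes correlated at 0.02 to 0.15 after removal of genotype means, with 16 of 18 best matches to the own number. With the replicate number as a block, 7, 1 and 7 listed genes were called in the 3 comparisons, as without it, while 34 genes rose and 43 fell over all genes in csu5-3 against Col, in place of 23 and 25. Those 23 and 25 became 1 and 4 without the mean-variance trend, 3 and 6 with no filter, 4 and 7 without Col replicate 1, 9 and 18 without Col replicate 3, 11 and 19 without csu5-3 replicate 1, and 5 and 15 without csu5-3 replicate 2. Depth limits XTH25 most, with 84 estimated reads in 1 csu5-3 library, and no source used here mentions molecular identifiers.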
